A study of Mus musculus with 6 samples.

Results

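Immediate early genes are the genes that a cell switches on within minutes of a signal, with no new protein needed, and 36 of them were followed here in mouse thyroid lobes with and without Foxe1. The 36 were taken from a list of symbols, which holds the AP-1, EGR and NR4A transcription factors, the IER proteins, MAP kinase phosphatases, CCN proteins, KLF factors with Myc, and several growth-arrest and RNA-decay factors. The choice used no measured value of these genes, but it was made with earlier results of the same data known. All 36 of 36 had a probe set carrying their symbol, out of 19505 genes named on the array. Where a gene had several probe sets the brightest was used, which concerned 1 member, Egr3.

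The study compared 3 Foxe1flox/flox/Cre mice, called knockouts here, with 3 Cre controls that carry the recombinase without the floxed gene. All 6 animals had a C57BL/6J background and received tamoxifen, the drug that switches the inducible Cre on, at 0.05 g/kg into the abdomen daily for 5 days at an age of 6 to 8 weeks. The thyroid was taken 2 weeks after treatment, and RNA from 1 frozen lobe per animal was read on 1 array. The promoter that drives Cre, the sex of the animals, the order of dissection and the time from death to freezing were not given in the sources used. Foxe1, a forkhead factor needed for thyroid development, read 7.60, 7.19 and 7.04 on the control arrays and 3.33, 2.88 and 3.04 on the knockout arrays, in log2 units. It fell by 4.19 (SE 0.22, limma adjusted p = 0.000442, 3 against 3 animals), in the direction of the labels. Array medians lay between 5.615 and 5.69 and correlations between arrays lay between 0.975 and 0.993. Mean signal of 3 Y-linked probe sets was 3.043 on control 1 and 2.647 on knockout 3, and 8.03 to 8.303 on the other 4 arrays, so each group held 1 array without Y-linked signal.

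Growth factors, hormones, stretch, wounding and stress reach these genes through MAP kinase cascades, through cyclic AMP and through calcium. Those signals act on factors already present in the cell, such as SRF with its partners and CREB. The transcripts are short lived, because sequences in many of them recruit decay factors such as Zfp36, and several of the proteins, such as the DUSP phosphatases, switch the signal off again. In the thyroid, thyrotropin acts through cyclic AMP. The same genes are known to respond to dissection and handling of a tissue, which is why they are read with care in dissected organs.

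No member passed the test for a difference between the genotypes, and most of the 36 had the higher mean in the knockouts. limma called 0 of 36 members at an adjusted p under 0.05, where it called 0.338% of all probe sets. Of the 36, 31 had the higher mean in the knockouts (86.1%, against 46.8% of all probe sets), with a median difference of 0.40 log2 units against -0.02 over all probe sets. Differences ran from 2.25 for Dusp2, whose lowest control reading is near the bottom of the scale, to -0.44 for Gadd45g. At an unadjusted p under 0.05, 12 members (33.3%) were higher in the knockouts and 0 were lower, where 6.61% of all probe sets were higher and 6.13% were lower. These 12 were Nr4a2, Klf6, Ccn2, Ier5, Myc, Junb, Dusp2, Egr3, Egr1, Klf4, Ier3 and Jun. For the first 10 of them every knockout array lay above every control (27.8% of members, against 9.28% of all probe sets). Gadd45g was the 1 member with every knockout below every control, where 8.78% of all probe sets had that order. The members were read on the same 6 arrays and are not independent of each other, so these shares are a description and no test was made of the set.

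**Figure D1:**
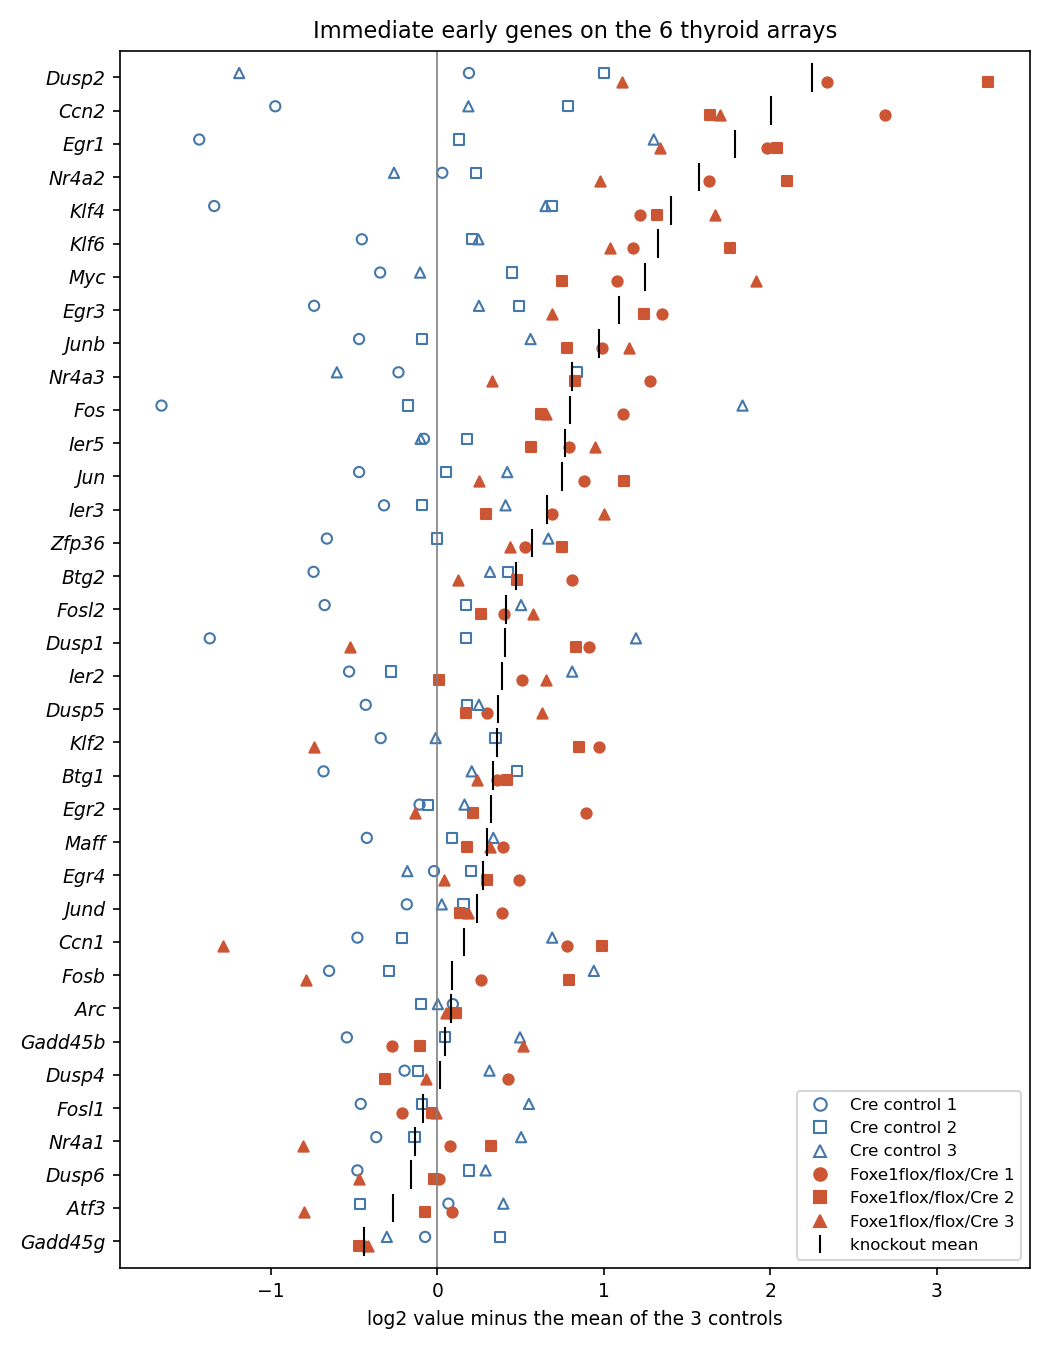
Each row is 1 of the 36 genes, and each point is 1 array, as its log2 value minus the mean of the 3 controls, with open symbols for controls, filled symbols for knockouts and a bar for the knockout mean. The bars of 31 genes lie right of 0, and control 1, the open circle, is the lowest control for 28 of the 36.

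The array that moved the set most was control 1. Without it the median difference of the members was 0.15, 24 of 36 were positive and 10 stayed at an unadjusted p under 0.05 in the higher direction, where 5.47% of all probe sets did. Without control 3 the median difference was 0.59 and 33 were positive. At that p 15 were then higher, where 5.85% of all probe sets were, and 1, Gadd45g, was lower, where 5.34% were. Without knockout 3 the median was 0.59, 32 were positive and 13 were higher at that p, where 5.28% of all probe sets were. Leaving out each array in turn kept 9 of 36 members at an unadjusted p under 0.05 in the higher direction throughout, where it kept 3.28% of all probe sets. These 9 were Junb, Egr1, Egr3, Nr4a2, Ier5, Dusp2, Ccn2, Klf6 and Myc. Fewer cells of a type and less RNA per cell cannot be told apart in RNA of a whole lobe.

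Promoters of many members hold letters that factors of early signalling are known to bind, and 5 promoters are printed here because the results below turn on these genes and they show such letters or, for Klf6, none. RefSeq start sites of build GRCm38.p6 gave a window of 250 bases before to 50 bases after the start for 28 of the 36 members and for 27025 genes in all. The letters TGACG, the short form of the cyclic AMP response element, were present on either strand in 18 of 28 members (64.3%, against 23% of all genes), and the full form TGACGTCA, which contains the short one, in Dusp1, Btg2 and Maff (10.7% against 2.03%). The EGR sequences GCGGGGGCG or GCGTGGGCG were present in 8 (28.6% against 3.93%), namely Fosb, Fosl2, Nr4a1, Dusp2, Zfp36, Klf2, Klf4 and Maff. A CArG box, the sequence that SRF binds, was present in Egr2, Dusp5 and Zfp36 (10.7% against 1.81%). The AP-1 letters TGACTCA or TGAGTCA were in 0 of 28 (5.95% of all genes) and the ETS core CCGGAAG was in Zfp36 only (3.57% of members against 9.93%). Egr2 and Maff have several windows in the table and were counted where any of theirs held the letters. Windows of the members were also richer in G and C, with a median of 64.7% against 52.8%, and held a median of 24.5 CpG pairs against 7. Matches are a description of letters and not of bound sites. The 250 bases before each start are given 5′ to 3′ on the gene's strand, with matches in capitals.

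Nr4a2 (chr2:57124004-57124253, minus strand), with the smallest p among the members and 4 short-form matches:
Nr4a2: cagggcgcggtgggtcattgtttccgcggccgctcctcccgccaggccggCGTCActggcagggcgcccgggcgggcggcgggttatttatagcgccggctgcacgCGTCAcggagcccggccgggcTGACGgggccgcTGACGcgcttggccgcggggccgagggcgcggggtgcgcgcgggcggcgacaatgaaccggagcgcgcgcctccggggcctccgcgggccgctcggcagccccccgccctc
Klf6 (chr13:5861239-5861488, plus strand), next by p and without a match in this stretch:
Klf6: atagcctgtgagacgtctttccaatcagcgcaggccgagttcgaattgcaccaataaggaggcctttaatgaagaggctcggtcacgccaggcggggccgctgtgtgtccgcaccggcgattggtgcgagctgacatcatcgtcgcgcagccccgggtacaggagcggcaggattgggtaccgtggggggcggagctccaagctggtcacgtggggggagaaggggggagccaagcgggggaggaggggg
Fos (chr12:85473640-85473889, plus strand), with the largest spread between arrays and 2 short-form matches:
Fos: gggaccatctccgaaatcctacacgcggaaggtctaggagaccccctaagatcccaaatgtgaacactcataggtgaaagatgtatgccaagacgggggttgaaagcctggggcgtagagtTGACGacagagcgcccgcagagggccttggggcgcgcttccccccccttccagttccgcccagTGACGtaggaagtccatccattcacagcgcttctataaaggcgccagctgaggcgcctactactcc
Dusp1 (chr17:26508473-26508722, minus strand), with the full cyclic AMP response element:
Dusp1: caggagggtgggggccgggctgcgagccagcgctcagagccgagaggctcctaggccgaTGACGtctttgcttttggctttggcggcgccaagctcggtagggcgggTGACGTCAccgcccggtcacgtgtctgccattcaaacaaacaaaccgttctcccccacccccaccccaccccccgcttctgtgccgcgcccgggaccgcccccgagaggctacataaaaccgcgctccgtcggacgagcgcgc
Zfp36 (chr7:28379229-28379478, minus strand), with EGR, ETS and CArG letters in turn:
Zfp36: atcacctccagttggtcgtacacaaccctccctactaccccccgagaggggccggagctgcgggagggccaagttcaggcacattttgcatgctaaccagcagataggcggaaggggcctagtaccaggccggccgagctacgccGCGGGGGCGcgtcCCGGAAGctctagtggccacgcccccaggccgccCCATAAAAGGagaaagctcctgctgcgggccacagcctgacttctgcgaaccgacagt

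The AP-1 subunits pair with each other to drive transcription from AP-1 sites. Of 9 members in this class, with the related factors Atf3 and Maff, 7 had the higher mean in the knockouts, and the median difference was 0.30. At an unadjusted p under 0.05, 2 were higher (22.2%, against 6.61% of all probe sets). The median was 0.07 without control 1 and also 0.07 on the 4 arrays with Y-linked signal. Junb, a Jun protein that restrains growth in many cells, stood at 8.90, 9.28 and 9.93 on the control arrays and at 10.36, 10.15 and 10.52 on the knockout arrays. Its groups did not overlap, and the difference was 0.97 (SE 0.27, limma adjusted p = 0.178). Jun, the founding partner of Fos, stood at 9.61, 10.13 and 10.50 on the control arrays and at 10.96, 11.20 and 10.33 on the knockout arrays. Knockout 3 lay below the highest control, and the difference was 0.75 (SE 0.30, limma adjusted p = 0.336).

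Fos, the most used marker of a recent signal, stood at 5.25, 6.73 and 8.74 on the control arrays and at 8.02, 7.53 and 7.56 on the knockout arrays. The controls spanned the knockouts from below and above. Control SD was 1.75 and knockout SD 0.27, and the difference of 0.80 (SE 0.71, limma adjusted p = 0.709) ranged from -0.03 without control 1 to 1.71 without control 3. Fosb, its close relative, stood at 4.65, 5.01 and 6.24 on the control arrays and at 5.56, 6.09 and 4.51 on the knockout arrays, with a mean difference of 0.09 (SE 0.48, limma adjusted p = 0.965). Control 3 was the highest array for both genes, and knockout 3 was the lowest of all 6 for Fosb. The other 5 of the class differed by 0.41 for Fosl2, 0.30 for Maff, 0.24 for Jund, -0.08 for Fosl1 and -0.26 for Atf3. Without control 1 Fosl2 differed by 0.07 and Maff by 0.08. Jund, which many tissues make at a steady level, varied least in the class, with a within-group SD of 0.15.

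The EGR zinc finger factors bind G-rich sequences in the promoters of growth and repair genes. All 4 had the higher mean in the knockouts. At an unadjusted p under 0.05, 2 of the 4 were higher, where 6.61% of all probe sets were. Egr1 stood at 10.08, 11.64 and 12.81 on the control arrays and at 13.49, 13.55 and 12.85 on the knockout arrays. Groups did not overlap, but control 3 and knockout 3 lay close together. The difference was 1.79 (SE 0.58, limma adjusted p = 0.237), and 1.07 without control 1. Egr3 stood at 5.97, 7.20 and 6.96 on the control arrays and at 8.06, 7.95 and 7.40 on the knockout arrays, with a mean difference of 1.09 (SE 0.33, limma adjusted p = 0.213) and of 0.72 without control 1. Its 3 probe sets differed by 1.09, 0.56 and 0.35, all in the same direction. On the dimmer probe sets the groups overlapped (limma adjusted p = 0.373 and 0.614). The brightest, used here, is one the platform names as unmapped, so the lack of overlap for Egr3 rests on that probe set alone. Egr2 differed by 0.32. Egr4 differed by 0.28 at values between percentiles 1.79 and 18.1 of its arrays, near the bottom of the scale.

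The NR4A orphan nuclear receptors are transcription factors that act without a known hormone and respond strongly to cyclic AMP. Nr4a2 stood at 9.34, 9.54 and 9.05 on the control arrays and at 10.94, 11.41 and 10.29 on the knockout arrays. The lowest knockout lay above the highest control, the difference was 1.57 (SE 0.29), a fold of 2.97, and its limma adjusted p of 0.073 was the smallest of the 36. Nr4a3 differed by 0.81 (SE 0.38, limma adjusted p = 0.426) with groups that overlapped. Nr4a1 stood at 8.66, 8.89 and 9.53 on the control arrays and at 9.10, 9.35 and 8.22 on the knockout arrays, with a mean difference of -0.14 (SE 0.33, limma adjusted p = 0.913). Here the highest array was a control and the lowest a knockout. The family held differences of both signs on the same arrays, and whether its members differ from each other was not tested.

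The IER proteins are small early proteins of growth and stress signalling. Ier5, which takes part in the heat shock response, stood at 6.84, 7.10 and 6.82 on the control arrays and at 7.71, 7.48 and 7.87 on the knockout arrays. Its groups did not overlap and its within-group SD of 0.18 was the third smallest of the members, with a difference of 0.77 (SE 0.19, limma adjusted p = 0.148). Ier3, a survival factor downstream of ERK and NF-kappaB, stood at 9.29, 9.52 and 10.02 on the control arrays and at 10.30, 9.90 and 10.61 on the knockout arrays, with a mean difference of 0.66 (SE 0.26, limma adjusted p = 0.333). Knockout 2 lay below control 3 for this gene. Ier2 differed by 0.39 (SE 0.35, limma adjusted p = 0.71), or 0.12 without control 1.

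MAP kinase phosphatases remove the activating phosphates from ERK, p38 and JNK. The nuclear phosphatase Dusp2 stood at 4.17, 4.98 and 2.79 on the control arrays and at 6.32, 7.29 and 5.09 on the knockout arrays. The difference was 2.25 (SE 0.63, limma adjusted p = 0.179), with SDs of 1.11 and 1.10 and no overlap. Its lowest control value stood at percentile 6.17 of its array, where a reading cannot be told from background, so the size of the difference is uncertain. Without that array, control 3, it was 1.66. Dusp1, a phosphatase that stress and glucocorticoids induce, stood at 12.59, 14.13 and 15.15 on the control arrays and at 14.87, 14.79 and 13.43 on the knockout arrays. Control 3 lay above and control 1 below every knockout, and the difference was 0.41 (SE 0.62, limma adjusted p = 0.844), or -0.28 without control 1. The ERK phosphatases Dusp5, Dusp6 and Dusp4 differed by 0.37, -0.16 and 0.01, and without control 1 by 0.15, -0.40 and -0.09.

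The KLF zinc finger factors and Myc regulate growth and differentiation. All 4 had the higher mean in the knockouts. For 3 of them every knockout lay above every control (75.0%, against 9.28% of all probe sets). Klf6 stood at 10.80, 11.46 and 11.50 on the control arrays and at 12.43, 13.01 and 12.29 on the knockout arrays, with a mean difference of 1.32 (SE 0.27, limma adjusted p = 0.0924), a fold of 2.50. Myc, the growth regulator, stood at 11.77, 12.56 and 12.01 on the control arrays and at 13.19, 12.86 and 14.03 on the knockout arrays, with a mean difference of 1.25 (SE 0.33, limma adjusted p = 0.16). Both genes kept every knockout above every control, and knockout 3 was the highest array for Myc. Klf4, a factor of epithelial differentiation, stood at 10.03, 12.06 and 12.02 on the control arrays and at 12.59, 12.69 and 13.04 on the knockout arrays. Control 1 was the lowest of the 6 arrays, and the difference of 1.40 (SE 0.49, limma adjusted p = 0.273) was 0.73 without it. Klf2, which flow induces in endothelium, stood at 6.05, 6.74 and 6.38 on the control arrays and at 7.36, 7.24 and 5.65 on the knockout arrays, with a mean difference of 0.36 (SE 0.43, limma adjusted p = 0.794), with knockout 3 lowest of all arrays.

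The CCN proteins are secreted into the matrix and respond to stretch through YAP and SRF. Ccn2 stood at 9.82, 11.58 and 10.98 on the control arrays and at 13.48, 12.43 and 12.49 on the knockout arrays. No knockout fell within the control range, and the difference was 2.01 (SE 0.45, limma adjusted p = 0.115), a fold of 4.02. Without control 1, the lowest array for Ccn2, the difference was 1.52. Ccn1 stood at 10.25, 10.52 and 11.42 on the control arrays and at 11.51, 11.72 and 9.44 on the knockout arrays, with a mean difference of 0.16 (SE 0.57, limma adjusted p = 0.944). Knockout 3 was its lowest array, and without that array its difference was 0.89 (limma adjusted p = 0.463). Mean signal of 6 endothelial markers was also lowest on knockout 3, at 9.06 against 9.50 to 10.57 on the other arrays, and that of 6 fibroblast markers was 10.39 against 11.43 to 12.59. Their part in the Ccn1 and Klf2 readings was not tested.

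The remaining 6 members act on RNA, growth arrest or the synapse. Zfp36, which binds AU-rich sequences and speeds RNA decay, stood at 8.21, 8.87 and 9.54 on the control arrays and at 9.40, 9.62 and 9.31 on the knockout arrays, with a mean difference of 0.57 (SE 0.31, limma adjusted p = 0.5). Control 3 overlapped the knockouts. The antiproliferative factors Btg2 and Btg1 differed by 0.47 and 0.34. Without control 1 the differences were 0.24 for Zfp36, 0.10 for Btg2 and -0.01 for Btg1. The stress proteins Gadd45b and Gadd45g differed by 0.05 and -0.44. Gadd45g stood at 9.35, 9.80 and 9.12 on the control arrays and at 8.98, 8.95 and 9.01 on the knockout arrays (SE 0.21, limma adjusted p = 0.436), with a knockout SD of 0.03. Arc, a synaptic gene of neurons, differed by 0.08 and lay between percentiles 17.0 and 22.2 of its arrays.

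**Figure D2:**
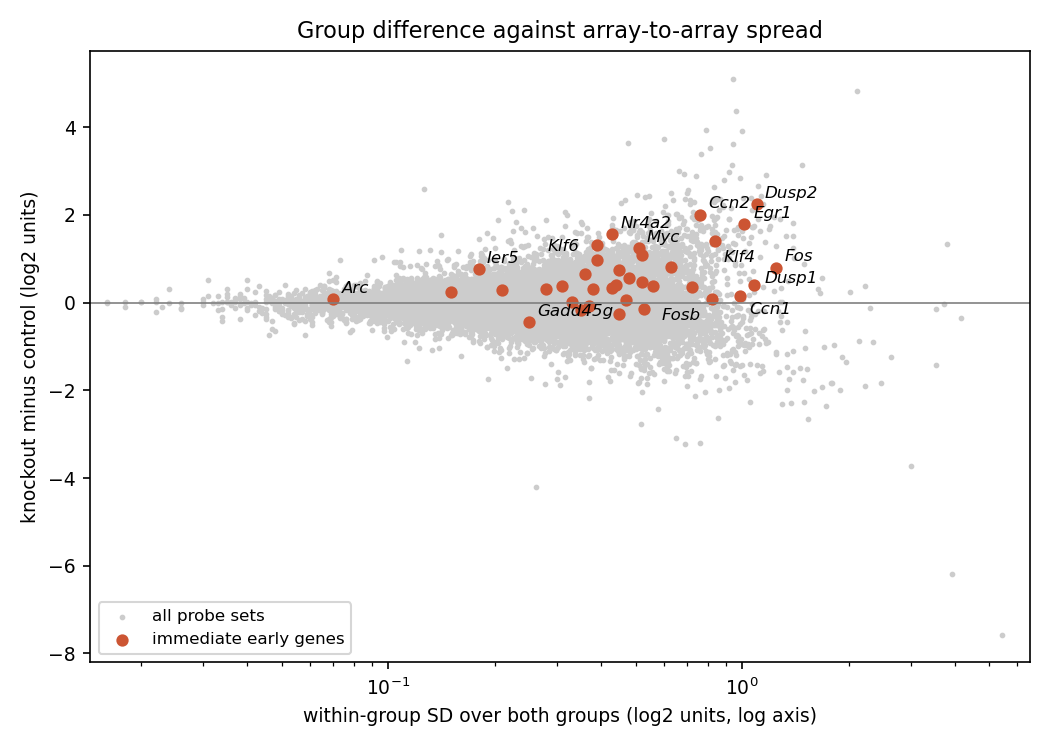
Each grey point is 1 of 22206 probe sets and each red point 1 of the 36 genes, with the within-group SD on a log axis and the knockout minus control difference in log2 units. Of the red points 31 lie above 0 and 31 lie right of the median SD of all probe sets, 0.28, with Dusp2 at 2.25, Ccn2 at 2.01 and Fos at an SD of 1.25.

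Spread between animals of one genotype was larger for these genes than for most of the array. The median within-group SD was 0.45 log2 units for the members and 0.28 for all probe sets, and 31 of 36 lay above the latter. Of the 36, 14 were in the most variable 10% of all probe sets, and 11 were in the most variable 10% of probe sets of like mean level. Fos had the largest SD at 1.25, then Dusp2 at 1.10, Dusp1 at 1.08, Egr1 at 1.01, Ccn1 at 0.99, Klf4 at 0.84, Fosb at 0.82 and Ccn2 at 0.76. These 8 include genes with large differences between the genotypes (Dusp2, Ccn2, Egr1) and genes with small ones (Ccn1, Fosb).

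For most members the controls were spread more widely than the knockouts. Control SD exceeded knockout SD for 25 of 36 members (69.4%, against 51.6% of all probe sets), with medians of 0.48 and 0.35, while over all probe sets the medians were 0.25 and 0.24. The contrast was widest for Fos, and Egr1 had SDs of 1.37 and 0.39, Klf4 of 1.16 and 0.24. Ccn1 and Klf2 ran the other way, with 0.61 against 1.26 and 0.35 against 0.95. The difference in spread between the groups was not tested.

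**Figure D3:**
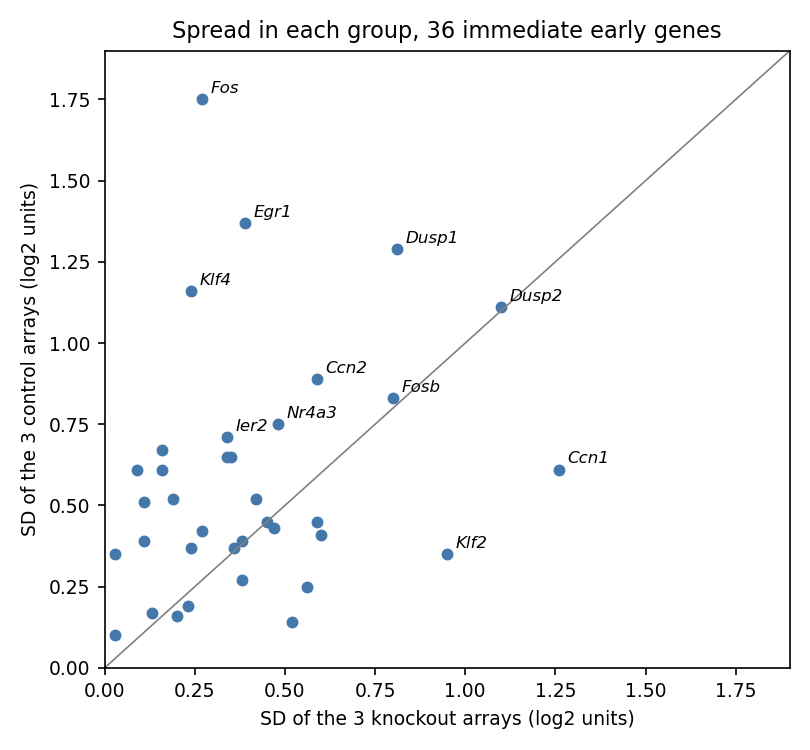
Each point is 1 of the 36 genes, with the SD of its 3 knockout arrays across and of its 3 control arrays upward, in log2 units, and the line marks equal SDs. Of the 36, 25 had the larger SD in the controls, Fos with 1.75 against 0.27, while Ccn1 and Klf2 lie far below the line.

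Many members placed the control animals in a like order. Control 1 was the lowest control for 28 of 36 members (77.8%, against 34.9% of all probe sets), with a mean deviation of -0.49 from the control mean. Control 3 was the highest for 21 (58.3% against 33.2%), with a mean deviation of 0.33, and control 2 deviated by 0.16. Among the knockouts, knockout 3 was the lowest for 20 members (55.6% against 36.5%), with a mean deviation of -0.24, while knockout 1 and knockout 2 deviated by 0.16 and 0.08. The members are thus not independent readings of an animal, since an array that was low for one was often low for others.

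Set against the knockouts, the 3 controls stood at different distances. Control 1 lay below every knockout for 27 members, control 2 for 18 and control 3 for 15. The same counts were not made over all probe sets, so they only set the 3 controls beside each other. The knockout mean exceeded control 1 by a median of 0.95, control 2 by 0.31 and control 3 by 0.14. Control 3 exceeded all 3 knockouts for Fos, Fosb, Fosl1, Nr4a1, Ier2, Atf3, Dusp1, Dusp6 and Gadd45g. The 10 genes whose knockouts all lay above all controls are among the 15.

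**Figure D4:**
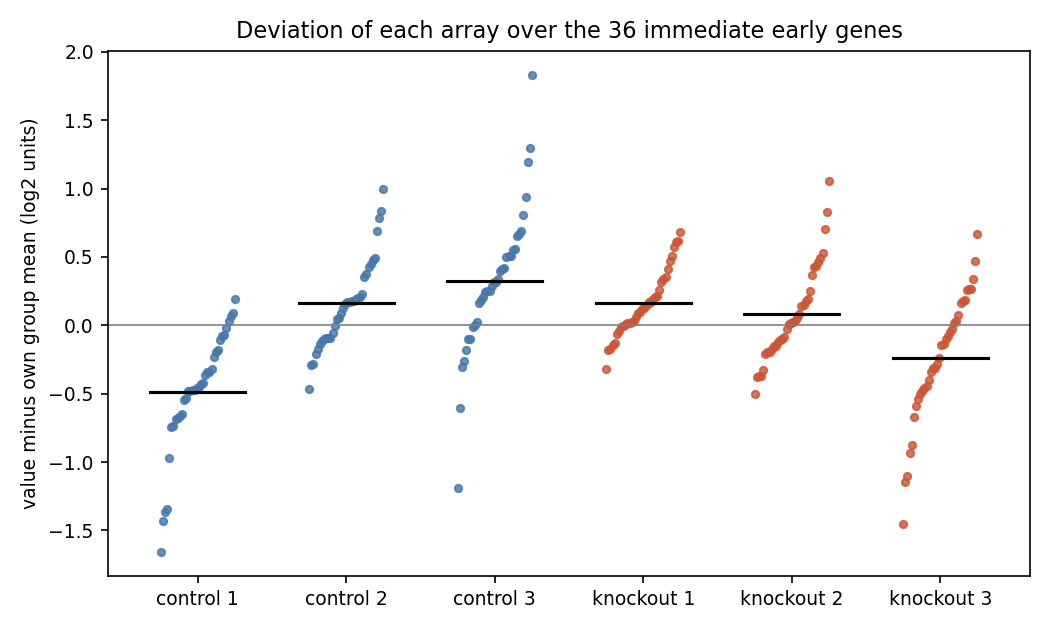
Each point is 1 of the 36 genes on 1 array, as its log2 value minus the mean of its own group, sorted within the array, and the bar is the array's mean over the genes. Control 1 averages -0.49 and control 3 averages 0.33, and knockout 3 averages -0.24.

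The arrays without Y-linked signal were control 1 and knockout 3, each of them low in its own group for these genes. Among the 4 arrays with Y-linked signal, 29 of 36 members had the higher mean in the knockouts, with a median difference of 0.29, and 17 had both knockouts above both controls, where 19.8% of all probe sets did. Between knockout 3 and control 1, which is 1 array against 1, Fos differed by 2.31, Egr1 by 2.77, Klf4 by 3.01 and Ccn1 by -0.81. Among the 4 other arrays those differences were 0.04, 1.29, 0.60 and 0.65. Members went both ways, since Nr4a2 differed by 0.95 between that pair and by 1.88 among the 4 others. For Klf2 these values were -0.40 and 0.74. With Y-linked level as a covariate the median difference was 0.39 and 12 members were higher at an unadjusted p under 0.05, where 6.89% of all probe sets were.

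Markers of other tissues differed between the same arrays. Thyroid RNA was present on all 6, with Tg, the hormone precursor, at 18.67 to 19.27. Markers of other tissues read as high, such as the muscle gene Acta1 at 19.64 to 19.89 and the squamous gene Krt4 at 19.88 to 19.93. The 8 follicular markers measured had a mean of 9.64, 9.43 and 7.82 on the control arrays and 10.63, 10.28 and 10.58 on the knockouts, all 8 with the higher mean in the knockouts, and Slc5a5, the iodide transporter, was near the bottom of the scale on control 3 at 2.97. All 12 skeletal muscle markers had the lower mean in the knockouts, with list means of 16.95 to 17.09 in the controls and 15.78 to 16.72 in the knockouts, as did all 7 airway markers, at 13.78 to 14.67 and 13.04 to 13.27. Squamous epithelial markers had the higher mean in 8 of 9, at 14.73 to 15.00 and 15.37 to 16.05. Control 1, the lowest control for most early genes, also had the highest mean of 7 adipocyte markers, 12.43 against 10.65 to 11.38, and of 4 neutrophil markers, 6.52 against 4.46 to 5.03. The latter came from S100a8, at 9.18 against 2.74 to 4.52, and S100a9, at 9.32 against 6.85 to 8.23, while Retnlg stood at 3.72 against 3.62 to 4.01 and Csf3r at 3.85 against 3.97 to 4.34. All 6 fibroblast and all 7 macrophage and dendritic cell markers had the lower mean in the knockouts, with median differences of -0.88 and -0.43. Pth, the parathyroid hormone, stood at 18.24, 19.68 and 17.02 on the control arrays and at 3.56, 18.61 and 10.06 on the knockout arrays. limma called 0 of the listed markers at an adjusted p under 0.05, where it called 0.338% of all probe sets. At an unadjusted p under 0.05, 5 of 7 airway, 4 of 12 muscle, 2 of 7 macrophage and 1 of 6 fibroblast markers were lower. At that p 4 of 8 follicular and 4 of 9 squamous markers were higher. Also lower at that p were 1 of 4 C cell markers, 1 of 2 parathyroid markers and the 1 erythrocyte marker measured. Among 6 endothelial markers 1 was higher. Mast cell markers went both ways, with 2 of 7 higher and 1 lower, as did the 2 nerve markers, with 1 higher and 1 lower. Over all probe sets 6.13% were lower and 6.61% were higher at that p. The part of these tissues in the readings of the early genes was not tested.

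Genes whose proteins carry signals to the early genes were read from lists beside the 36. Of 18 measured kinases and adaptors of the Ras-ERK, p38 and JNK cascades, 14 had the higher mean in the knockouts with a median of 0.11. Of these 18, 0 passed the adjusted threshold, where 0.338% of all probe sets did. By smallest p they were Mapk8, which is JNK1, with -0.99 (limma adjusted p = 0.285), Map2k1, the ERK kinase MEK1, with 0.70 (limma adjusted p = 0.294), Rps6ka5 with 0.44 and Map2k3 with 0.31. Of 17 SRF, TCF, MRTF and CREB factors and cofactors, 8 had the higher mean with a median of -0.08, and those with the smallest p were Mef2c with -0.58, Atf1 with 0.38, Mrtfa with 0.40 and Srf with -0.37. These are transcript levels and do not show the activity of the proteins.

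Feedback inhibitors switch off ERK or the other MAP kinases, as the DUSP members do, and further response genes follow the same signals. Of 13 feedback inhibitors 7 had the higher mean with a median of 0.01. At an unadjusted p under 0.05, 4 were higher (30.8%, against 6.61% of all probe sets). At that p 1 was lower, Dusp10 with -0.82, where 6.13% of all probe sets were. Dusp14 stood at 10.97, 12.12 and 11.75 on the control arrays and at 12.60, 13.04 and 13.34 on the knockout arrays, with a mean difference of 1.38 (limma adjusted p = 0.124), and Dusp7, Spry1 and Errfi1 differed by 0.65, 0.74 and 1.08. Of 32 other early and delayed response genes 25 had the higher mean with a median of 0.29, or 0.10 without control 1 and 0.15 on the 4 arrays with Y-linked signal. At that p 8 were higher and 1 lower. Thbs1, a matrix protein of wounding, differed by -1.61 (limma adjusted p = 0.14), Sik1, a kinase that cyclic AMP induces, by 0.76, Plk3 by 1.38 and the EGF family ligand Ereg by 1.58.

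Heat shock genes split within their list. Of 12 measured, 4 had the higher mean, while the list median was -0.07. Those 4 were also higher at an unadjusted p under 0.05 (33.3%, against 6.61% of all probe sets). Hspa1b, an inducible HSP70, stood at 9.49, 8.93 and 9.29 on the control arrays and at 10.40, 10.42 and 10.88 on the knockout arrays, with a mean difference of 1.33 (limma adjusted p = 0.0589). Dnajb1, its co-chaperone, stood at 9.59, 10.23 and 10.13 on the control arrays and at 10.97, 11.21 and 11.48 on the knockout arrays, with a mean difference of 1.24 (limma adjusted p = 0.0737). Hspa1a, a near-identical copy of Hspa1b whose probes may share its signal, differed by 1.08, and Hspb1 by 0.60. For these 4 genes all knockouts lay above all controls (33.3% of the list, against 9.28% of all probe sets). Control 1 was the highest control for Hspa1b and Hspa1a and the lowest for Dnajb1 and Hspb1.

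Of 12 glucocorticoid response genes 7 had the higher mean with a median of 0.11. At an unadjusted p under 0.05, 2 were higher (16.7%, against 6.61% of all probe sets) and 1 lower (against 6.13% of all probe sets). Cdkn1a, the p21 cell cycle inhibitor, differed by 1.18, Errfi1 by 1.08, Zbtb16 by -0.87 and Per1 by 0.54. The related lists share some genes, which are counted in each. Errfi1 is also among the feedback inhibitors and the other response genes, and Per1 and Sgk1 are also among the latter. Ddit4 is in the glucocorticoid and hypoxia lists, and Vegfa is in the hypoxia list and among the other response genes. Of 14 hypoxia response genes 6 had the higher mean with a median of -0.12, with Egln3, an oxygen sensor, at 1.11 (limma adjusted p = 0.148), Hk2 at -0.65, Vegfa at 0.85 and Ndrg1 at 0.74. Without control 1 the list medians were 0.01 for the kinases, -0.01 for the SRF and CREB group, -0.10 for the feedback inhibitors, 0.06 for heat shock genes, 0.06 for glucocorticoid and -0.13 for hypoxia response genes. In every one of these 7 lists limma called 0 genes at the adjusted threshold, where it called 0.338% of all probe sets.

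**Figure D5:**
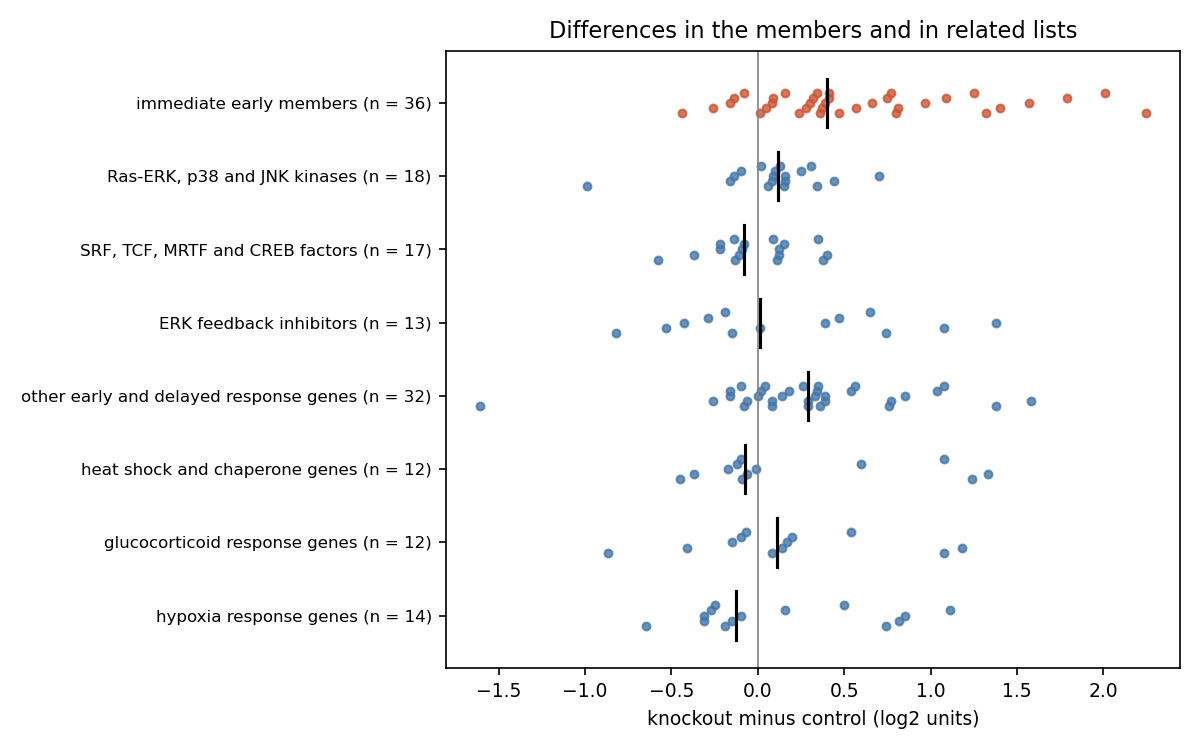
Each point is 1 gene, as the knockout minus control difference in log2 units, in the 36 immediate early genes and in 7 lists of related genes, and the bar is the list's median. Medians run from -0.12 for hypoxia response genes to 0.40 for the immediate early genes, and single genes of most lists lie beyond 1. A gene that is in several lists has a point in each.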

How the data were processed

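RNA of 6 thyroid lobes was read on Affymetrix whole-transcript arrays, 3 per group, with groups taken from the sample titles and genotypes. The log2 values the authors deposited came from RMA, run in Affymetrix Expression Console, as the submitters' processing notes name it. For its settings, version, annotation and genome build, nothing is given in the sources used here. RMA equalises the arrays and compresses low values, and no detection calls were used. Of 22206 probe sets, 19572 carry 1 symbol in the platform's annotation, all matched to RefSeq of GRCm38.p6, and 2634 are unnamed here. Precision is limited by the number of arrays, 3 in each group. The limma p-values set each difference against the spread between animals within groups. For this the variance of each probe set is drawn toward a value common to all probe sets.

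lmFit and eBayes of limma 3.58.1 (R 4.3.3), with neither a trend nor a filter, gave two-sided tests of knockout minus control for every probe set. P-values were adjusted by Benjamini-Hochberg over the whole array and called under 0.05. A within-group SD pools both groups, with 4 degrees of freedom, and a percentile ranks a value among all probe sets of its array. The fit was also run on simulated data with known changes, as a check of the calculation. Probe sets varied independently there, so that check does not cover deviations that many genes of an array share. Figures used matplotlib 3.10.9 in Python 3.11.15.

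The members and lists were chosen with earlier results of these data known. Values on every array are given for the 12 members with the smallest p, the 8 with the largest SD, and Fos, Jun, Egr1, Nr4a1 and Myc, and up to 4 genes by smallest p were named from each related list. Per-array values of Klf2, Gadd45g and Zfp36, and the marker genes named singly, were chosen after their values were seen. Other settings were a second quantile normalization, centring on the median, a variance trend (plain or robust), an ordinary t statistic, weights per array, 2 filters on dim signals, only the named probe sets, averaging the probe sets of a gene, an adjusted p of 0.10, the replicate number as a block, the Y-linked level as a covariate and each array left out. The 4 arrays with Y-linked signal alone were added after the data were seen.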

Additional observations from a re-analysis of the deposited data

How the results depend on the processing

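The count of members past the threshold was 0 as fitted, 1 with array weights (Nr4a2, adjusted p = 0.0394), 2 at an adjusted p of 0.10 (Nr4a2 and Klf6), and 0 in the other settings without a block, those that leave out an array among them. An ordinary t statistic also called 0. Over all probe sets the 75 calls became 118 with a robust variance trend, 0 with an ordinary t statistic, 6 on the arrays with Y-linked signal, 260 at an adjusted p of 0.10, and 2 to 43 when 1 array was left out. The labels name no pairing of the animals beyond replicate numbers. Deviations of same-numbered arrays correlated at -0.00902, 0.076 and 0.0172, which neither shows nor excludes a pairing. With the replicate number as a block 63 probe sets and 1 member passed (Dusp2, limma adjusted p = 0.0236).

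The members' median difference of 0.40 ran from 0.15 without control 1 to 0.59 without control 3 or knockout 3, and their median SD of 0.45 from 0.35 to 0.51, while the median over all probe sets stayed between -0.03 and 0.02. Of 676 values of single members under other settings, 648 kept their direction and side of the threshold and 26 turned, in 12 members. Array weights turned Gadd45b to -0.14. On the arrays with Y-linked signal the differences were -0.01 for Fosl2, 0.01 for Nr4a1, -0.01 for Ier2, 0.04 for Atf3, -0.05 for Dusp4 and -0.46 for Gadd45b. Leaving out 1 array gave ranges of -0.03 to 1.71 for Fos, -0.27 to 0.56 for Fosb, -0.28 to 1.00 for Dusp1, -0.19 to 0.18 for Dusp4, -0.01 to 0.58 for Btg1, -0.25 to 0.89 for Ccn1, -0.23 to 0.29 for Gadd45b, -0.31 to 0.19 for Fosl1, -0.37 to 0.20 for Nr4a1 and -0.49 to 0.01 for Atf3. For 27 of 36 members leaving out some array moved the difference by over 1.5 times. The cause of these changes was not tested. Low readings, such as those of Egr4 and Arc, and that of Dusp2 on control 3, cannot be told from background on these arrays.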
